A study of Mus musculus with 6 samples.

Results

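The myelin genes of mature oligodendrocytes were followed by RNA-seq in 6 mice, of each of which the hippocampus gave 1 library. The 9 genes, Mbp, Mobp, Mal, Cldn11, Cnp, Mag, Mog, Opalin and Ermn, were taken by name from the 55471 genes of the deposited count table once Ensembl identifiers had been matched to symbols, by a rule that uses no measured value. All 9 were tested, since the lowest raw count of any of them in any library was 684.

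The mice were C57BL/6 and 3 to 6 months old, and all were given tamoxifen by gavage 5 times, at 20 mg/ml in corn oil. All were male according to the methods of the study. The 3 p300-ifKO mice (inducible forebrain knockout, Ep300_flox;Camk2a_creERT2) carried floxed Ep300, the gene for the acetyltransferase p300, and a tamoxifen-inducible Cre recombinase driven by Camk2a. Per the methods of the study, recombination occurs in excitatory forebrain neurons and leaves a truncated p300 without acetyltransferase activity. The 3 control mice (Control) were littermates that lack creERT2 according to the protocol, although the description of each control library names Camk2a_creERT2. Esr1, part of which is built into creERT2, had 87.2 to 109 normalized counts in the control libraries and 2416 to 4217 in the p300-ifKO libraries. A normalized count is a read count divided by the DESeq2 size factor of its library.

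Oligodendrocytes wrap axons in myelin, a stack of membrane that lets action potentials travel fast along the axon and that makes up most of white matter. In the hippocampus it lies mainly in the alveus, the fimbria and the fibre layers, so a dissection that keeps more of these tracts carries more myelin transcript. Mature oligodendrocytes switch on a shared program of membrane proteins under the transcription factors Sox10 and Myrf. The Camk2a driver acts in excitatory neurons, whereas the 9 genes are transcribed in oligodendrocytes, so the comparison asked whether myelin genes differed in the tissue around neurons that had lost p300.

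Total counts were between 23151568 and 28433823 per library. Ep300 had 1474 to 2334 normalized counts in control mice and 478, 1350 and 912 in p300-ifKO replicates 1, 2 and 3, with replicate 2 nearest to the controls. The libraries differed in a trend with gene length: the rank correlation between a gene's deviation from its mean over the 6 libraries and its exonic length was −0.51 in p300-ifKO replicate 1 and −0.28 in replicate 3, and between 0.16 and 0.42 in the other 4. Results are therefore given with and without these libraries or with offsets that remove the trend. Within each group the Ep300 count rose in the order of this trend, and the part of the trend in it was not tested. DESeq2 put Ep300 at a log2 fold change (p300-ifKO over control) of −0.97 (SE 0.33, unadjusted p 0.0037 and adjusted p 0.99). Of the genes of peripheral myelin, the myelin of Schwann cells, Pmp2 had 0 normalized counts in every library. The whole list of 6 summed to 628 to 692 in the controls and 679 to 812 in the p300-ifKO mice, most of it Pmp22, which is not restricted to Schwann cells.

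The stretch upstream of the start site was examined in the 8 genes with a RefSeq promoter window (GRCm38.p6), over the 250 bases before the start. The core of a SOX site (ACAAAG or ACAATG, either strand) was present in 5 of 8 windows, those of Mag, Mobp, Cnp, Opalin and Ermn, and in 25.2% of 32851 windows of all genes. A heptamer bound by Myrf (CTGGCAC or CTGGTAC, either strand) was present in 3 of 8, those of Mog, Mag and Cnp, and in 5.93% of all windows. The motifs do not overlap in any of them. The windows of Cldn11 and Mal held neither. Mag and Cnp, which held both, Mog, which held the Myrf heptamer alone, and Mobp, which held 6 SOX cores, are shown 5′ to 3′ on the strand of the gene, with the matches in capitals. The Mag stretch is chr7:30914905-30915009 (minus strand), that of Cnp chr11:100574752-100574884 (plus strand), that of Mog chr17:37023455-37023501 (minus strand) and that of Mobp chr9:120149492-120149647 (plus strand).
Mag: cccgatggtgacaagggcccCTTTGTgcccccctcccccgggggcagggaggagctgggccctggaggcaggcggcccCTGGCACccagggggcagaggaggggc
Cnp: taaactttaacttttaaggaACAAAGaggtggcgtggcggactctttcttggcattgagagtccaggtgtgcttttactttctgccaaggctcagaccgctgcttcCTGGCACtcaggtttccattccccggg
Mog: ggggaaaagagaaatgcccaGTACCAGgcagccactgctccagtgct
Mobp: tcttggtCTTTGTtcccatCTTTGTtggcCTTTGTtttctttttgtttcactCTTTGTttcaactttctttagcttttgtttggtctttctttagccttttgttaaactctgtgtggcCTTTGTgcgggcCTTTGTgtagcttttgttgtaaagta
A match is a description of the letters and not a measured site. Binding was not measured in these libraries.

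The levels of the 9 genes spanned a wide range. Levels are given per kilobase of exon, with the exons of all annotated transcripts of a gene joined. Mbp had 6703 ± 1192 (SD over 6 libraries) normalized counts, more than 99.78% of genes with a mean of at least 100. Mobp followed with 2758, Cnp with 2078, Mal with 2069, Cldn11 with 1363, Mag with 1151, Mog with 928, Ermn with 343 and Opalin with 281 normalized counts per kilobase. Ermn was higher than 89.07% and Opalin higher than 86.84% of those genes. The ranges over the 6 libraries did not overlap between Mbp and Mobp, nor between Mog and Ermn. All other neighbours in the order overlapped, and Cnp lay above Mal in 3 of 6 libraries. Together the 9 genes took 0.328% to 0.495% of all counts, and Mbp alone made up 53.1% to 59.9% of their sum.

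No myelin gene differed between p300-ifKO and control mice beyond the spread between mice. In the DESeq2 Wald test across 32773 genes, 0 of the 9 had an adjusted p under 0.05, against 0.0061% of all genes (Esr1 and Arsi, both carried by the driver transgene). At an unadjusted p under 0.05 the count was also 0 of 9, against 1.32% of all genes, and edgeR and limma-voom gave 0 of 9 at either threshold, against 0.0117% of the genes each tested at an adjusted p under 0.05 and 2.3% (edgeR) and 2.15% (limma-voom) at an unadjusted p under 0.05. The adjusted p in DESeq2 was 0.994 for Ermn and 0.991 for each of the other 8. The log2 fold change (p300-ifKO over control) was positive for 6 and negative for 3, with a median of 0.17, beside −0.046 over all genes tested and −0.0044 over genes with a mean of at least 100 normalized counts. The p300-ifKO and control libraries overlapped for all 9 genes, whereas 6.64% of all genes tested did not overlap. In bulk tissue, a difference in the number of oligodendrocytes and one in the RNA of each cell cannot be told apart.

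**Figure D1:**
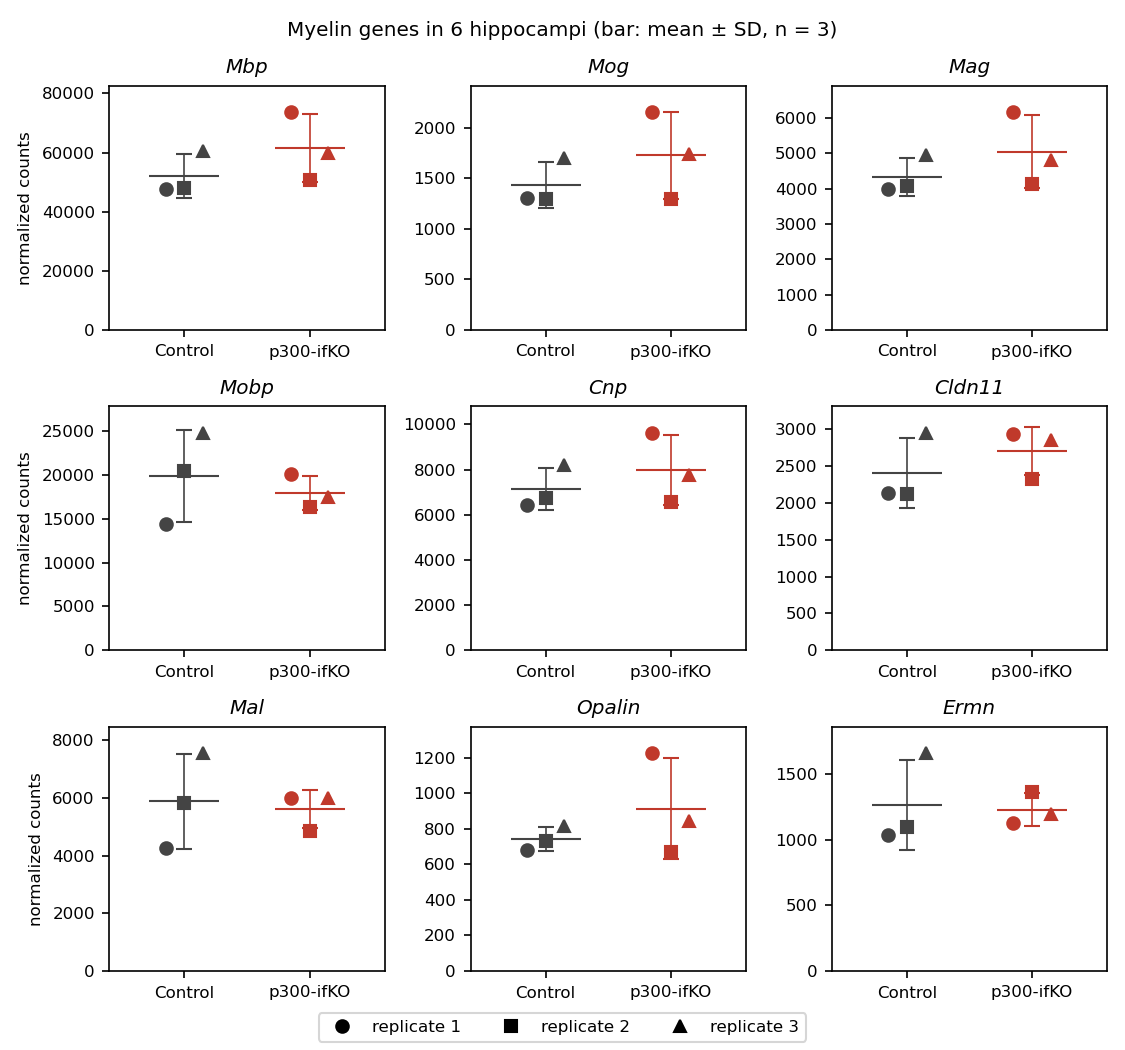
Normalized counts (y axis, from 0) of the 9 myelin genes in 3 control mice (grey) and 3 p300-ifKO mice (red), 1 panel per gene, with replicate numbers as symbols and bars for mean ± SD (n = 3). The groups overlap in every panel, and p300-ifKO replicate 1 is the highest mouse for Mbp, Mog, Mag, Cnp and Opalin, while Control replicate 3 is the highest for Mobp, Mal, Cldn11 and Ermn.

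The genes of compact myelin were read first. Mbp (ENSMUSG00000041607, chromosome 18, 82475146 to 82585637 on GRCm38, plus strand) encodes myelin basic protein, which holds the cytoplasmic faces of the membrane together. It had 47577, 47908 and 60654 normalized counts in Control 1, 2 and 3 and 73674, 50821 and 59987 in p300-ifKO 1, 2 and 3. One p300-ifKO mouse was thus above all controls, and the other two lay within the control range. Controls averaged 52046 ± 7456 (SD, n = 3) and p300-ifKO mice 61494 ± 11501 (SD, n = 3), which DESeq2 put at a log2 fold change of 0.24 with an SE of 0.18.

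Mobp (ENSMUSG00000032517, chromosome 9, 120149707 to 120181484, plus strand), a second basic protein of compact myelin, followed Mbp only in part. Their Pearson r over the 6 libraries was 0.48, and 0.60 with length and GC offsets. Its normalized counts were 14377, 20447 and 24773 in the controls and 20071, 16269 and 17414 in the p300-ifKO mice. Control 2 and 3 lay above all p300-ifKO mice and Control 1 below them. DESeq2 put Mobp at a log2 fold change of −0.15 with an SE of 0.21, and at 0.044 without Control 3. Mobp shares 79 exonic bases with Gm38642 on the same strand.

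Mal (ENSMUSG00000027375, chromosome 2, 127633226 to 127656695, minus strand), a proteolipid that takes part in sorting membrane to myelin, had a profile close to that of Mobp. It had 4262, 5833 and 7552 normalized counts in the controls and 5991, 4855 and 5986 in the p300-ifKO mice, all 3 of which lay inside the control range. Its log2 fold change of −0.068 had an SE of 0.22 and turned to 0.16 without Control 3 and to 0.029 without p300-ifKO 2.

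Cldn11 (ENSMUSG00000037625, chromosome 3, 31149920 to 31164324, plus strand) encodes claudin-11, which forms the tight junctions between the layers of myelin. Its normalized counts were 2131, 2120 and 2947 in the controls and 2926, 2323 and 2842 in the p300-ifKO mice. Here Control 3 was level with p300-ifKO 1 and 3, and the other two controls were the lowest of the 6. For Cldn11 the log2 fold change was 0.17 with an SE of 0.18, and 0.35 without Control 3. It was 0.089 without Control 2, 0.092 without Control 1, 0.10 without p300-ifKO 1 and 0.062 with length and GC offsets.

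Cnp and Mag mark the non-compact parts of the sheath. Cnp (ENSMUSG00000006782, chromosome 11, 100574904 to 100591729, plus strand) encodes a phosphodiesterase that keeps cytoplasmic channels in myelin open. It had 6454, 6748 and 8205 normalized counts in the controls and 9636, 6575 and 7743 in the p300-ifKO mice. The p300-ifKO mean thus rested on replicate 1, for the log2 fold change of 0.16 with its SE of 0.18 became 0.0034 without that mouse. Cnp shares 154 exonic bases with Dnajc7 on the other strand, and since the strand setting of the counting is not stated, reads there could belong to either gene.

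Mag (ENSMUSG00000036634, chromosome 7, 30899176 to 30914873, minus strand) encodes myelin-associated glycoprotein, an adhesion molecule of the innermost layer that faces the axon. Its normalized counts were 3979, 4067 and 4946 in the controls and 6167, 4136 and 4822 in the p300-ifKO mice. Again p300-ifKO 1 lay above all other mice, and Control 3 came next. Mag reached a log2 fold change of 0.22 with an SE of 0.18.

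At the outer surface of myelin, Mog (ENSMUSG00000076439, chromosome 17, 37010743 to 37023398, minus strand), an immunoglobulin-family protein, had 1305, 1295 and 1697 normalized counts in the controls and 2156, 1293 and 1738 in the p300-ifKO mice. The lowest p300-ifKO mouse was level with the 2 lowest controls. A log2 fold change of 0.27 with an SE of 0.22 resulted.

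Opalin (ENSMUSG00000050121, chromosome 19, 41061710 to 41077113, minus strand), a transmembrane protein of oligodendrocytes, had the widest spread of the 9 genes, with 1.83-fold between the highest and the lowest mouse. Its normalized counts were 680, 730 and 813 in the controls and 1225, 670 and 844 in the p300-ifKO mice. The highest and the lowest mouse were thus both p300-ifKO. Its log2 fold change, 0.30 with an SE of 0.23, was the highest of the 9, and it was 0.028 without p300-ifKO 1.

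Ermn (ENSMUSG00000026830, chromosome 2, 58045113 to 58052864, minus strand) encodes ermin, a cytoskeletal protein that appears late in oligodendrocyte maturation. Its normalized counts were 1033, 1099 and 1659 in the controls and 1123, 1365 and 1199 in the p300-ifKO mice. It was the only member for which p300-ifKO 1 lay below p300-ifKO 2. A log2 fold change of −0.040 with an SE of 0.21 turned to 0.12 with offsets for length and GC content. Ermn shares 237 exonic bases with Galnt5 on the other strand, so its counts are uncertain to that extent.

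The precision of the comparison is given by the intervals. The 95% intervals of the 9 log2 fold changes ran from −0.56 (the lower end for Mobp) to 0.75 (the upper end for Opalin), and each included 0. Within-group spread differed between genes: the coefficient of variation was 9.08% over controls and 31.1% over p300-ifKO mice for Opalin, and 27.2% and 10.1% for Ermn.

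**Figure D2:**
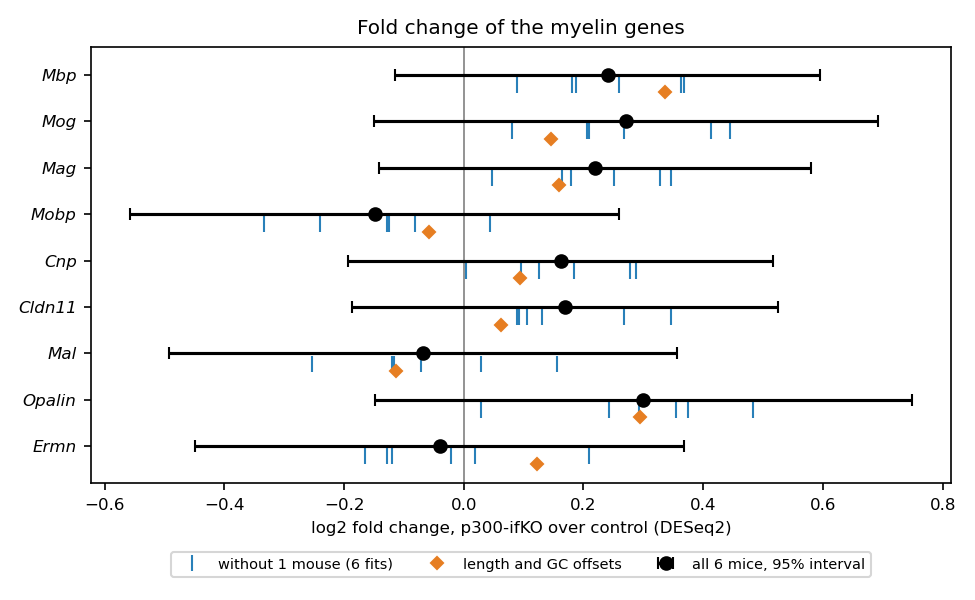
Log2 fold change (x axis, p300-ifKO over control, DESeq2) of each myelin gene, with black points and 95% intervals for all 6 mice, blue ticks for the 6 fits that each leave out 1 mouse and orange diamonds for the fit with length and GC offsets. Every interval includes 0, and Mobp, Mal and Ermn have ticks on both sides of 0.

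Single mice moved these values. Without p300-ifKO 2, the mouse with Ep300 nearest to the controls, 0 of 9 had an adjusted p under 0.05, against 2.89% of all genes in DESeq2. In that fit 4 of 9 had an unadjusted p under 0.05 (Mbp, Mog, Mag and Opalin, all higher in p300-ifKO mice), against 12.8% of all genes in either direction and 6.19% higher. These shares are not matched for expression: all 9 had a mean of at least 100 normalized counts, as did 12252 of the 32019 genes tested in that fit. The adjusted p of Mbp, Mog, Mag and Opalin in DESeq2 lay between 0.0716 for Mog and 0.12 for Mag. Their log2 fold changes were 0.36, 0.45, 0.35 and 0.48, in that order. The 4 genes varied together over mice, so they do not count as separate evidence. The 2 p300-ifKO libraries left in that fit were those with negative length trends and the 3 controls all had positive ones, so that genotype and trend cannot be told apart there. Without p300-ifKO 1 the log2 fold changes of Mbp, Mog and Mag were 0.089, 0.080 and 0.047. Without Control 3 the median of the 9 was 0.33, with all 9 positive, and without p300-ifKO 1 it was 0.028, with 7 positive.

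The more visible pattern was among mice rather than between groups. As a deviation from each gene's mean over the 6 mice on the scale of log2(normalized count + 1), the median of the 9 genes was −0.25, −0.16 and 0.13 in Control 1, 2 and 3 and 0.37, −0.19 and 0.061 in p300-ifKO 1, 2 and 3. Genes above their mean numbered 0, 2 and 9 of 9 in the controls and 8, 1 and 7 in the p300-ifKO mice. Each group thus held mice with low and mice with high myelin transcript. Over the 12253 genes with a mean of at least 100, the median deviation stayed between −0.017 and 0.013 in every library.

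Mice of one genotype differed from each other to unequal degrees. Control 2 and Control 1 were close, with Control 2 higher for 7 of 9 genes by a median of 0.064. Control 3 exceeded Control 1 for 9 of 9 genes, by a median of 0.38 on the log2 scale (from 0.26 for Opalin to 0.83 for Mal), whereas 45.2% of genes with a mean of at least 100 were higher in Control 3. Likewise p300-ifKO 1 exceeded p300-ifKO 2 for 8 of 9 genes, by a median of 0.54, with Ermn as the exception at −0.28, and 49.2% of genes with a mean of at least 100 were higher there. The 2 mice with the most myelin transcript, Control 3 and p300-ifKO 1, came from different groups. The summed normalized count of the 9 genes was 113246 and 122969 in these mice, and 81797 to 102574 in the other 4.

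**Figure D3:**
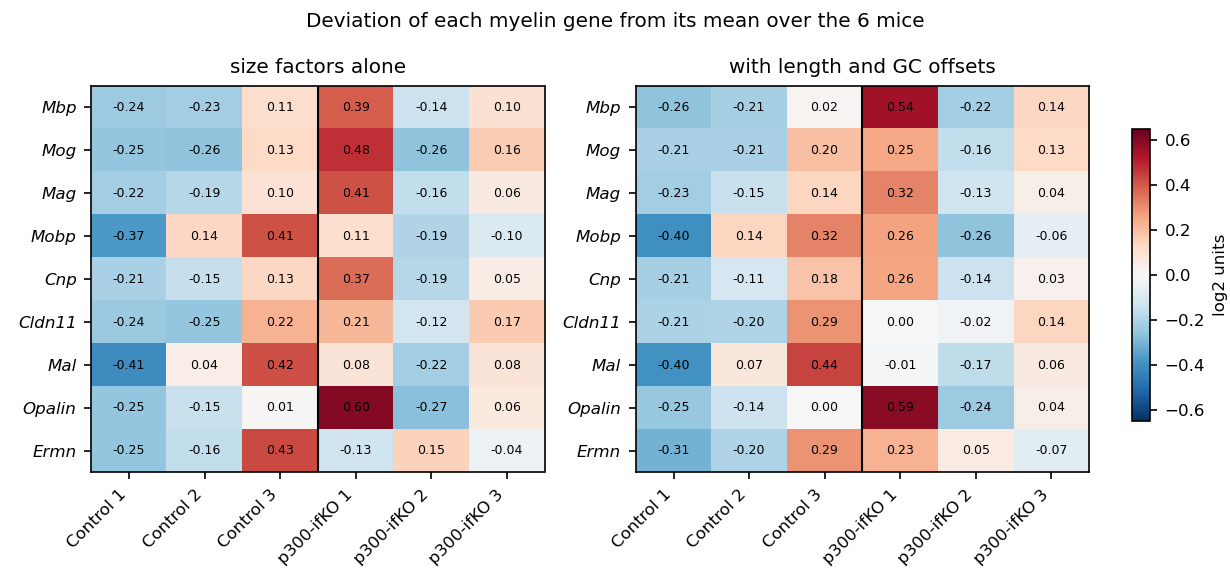
Deviation of each myelin gene (rows) from its own mean in each mouse (columns), in log2 units, with blue below and red above the mean and a black line between control and p300-ifKO mice, for size factors alone (left) and with length and GC offsets (right). Control 1 is below the mean for 9 of 9 genes on both scales, and p300-ifKO 1 is above it for 8 of 9 on both scales.

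The closeness of the 9 genes to each other varied. Of the 36 pairs, 35 had a positive Pearson r over the 6 libraries, with a median of 0.65 and 13 above 0.9. These values are descriptions over 6 points that share libraries and size factors. Mbp, Mog, Mag, Cnp and Opalin were closest, with r between 0.94 and 0.99 among them, and were highest in p300-ifKO 1. Mobp and Mal (r 0.95) were highest in Control 3, and above their mean in Control 2 as well. Between these sets, which were formed after the values were seen, r lay between 0.42 and 0.66. With length and GC offsets r between the sets ran from 0.29 to 0.84, and Mobp with Cnp (0.84) was then closer than Mog with Opalin (0.81), so the sets were not separate on that scale. Ermn was the farthest from the rest, with r 0.33 against the mean of the other 8, and its r with Opalin, −0.077, was the only negative one. Within groups, after the mean of each group was removed, the median r was 0.74, no lower than over all mice.

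The trend with gene length was set beside this pattern, since the mice with the most myelin transcript, Control 3 and p300-ifKO 1, had opposite trends (0.41 and −0.51). p300-ifKO 2, with low myelin transcript, had a trend of 0.42, next to that of Control 3. With smooth offsets for length and GC content in each library, the median deviation was −0.25, −0.15 and 0.20 in the controls and 0.26, −0.16 and 0.038 in the p300-ifKO mice, the same order of mice as before. All 36 pairs then had a positive r, with a median of 0.77, and Ermn reached 0.83 against the other 8. The excess of p300-ifKO 1 over p300-ifKO 2 then covered 9 of 9 genes, with a median of 0.42, beside 60.6% of genes with a mean of at least 100 and a median of 0.10 over them. On this scale the median deviation of those genes was 0.074 in p300-ifKO 1 and −0.066 in Control 3. High myelin transcript in p300-ifKO 1 and Control 3 was thus present on both scales.

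The fold changes were also set beside those of genes of like length. Over length deciles of the genes with a mean of at least 100, the median log2 fold change ran from 0.28 in the shortest to −0.19 in the longest. Mog (exonic length 1704 bases) had 0.27, next to a median of 0.28 for its decile, and Cldn11 (1870 bases) had 0.17 against the same 0.28. Mal and Ermn were negative, at −0.068 and −0.040, where the medians of their deciles were 0.11 and 0.057. Mbp stood farthest from genes of like annotated length (8469 bases), at 0.24 against −0.13. That length joins the exons of 16 annotated transcripts, and which of them the libraries held was not measured. A shorter length would place Mbp in a decile with a higher median, so its distance depends on that length. The offsets used the same length. In the fit with offsets Mbp had the largest log2 fold change of the 9, 0.34 (SE 0.18, unadjusted p 0.0635 and adjusted p 0.951 in DESeq2), and Mog had 0.15 (SE 0.16). The median of the 9 was 0.12 in that fit, beside 0.039 over genes with a mean of at least 100.

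**Figure D4:**
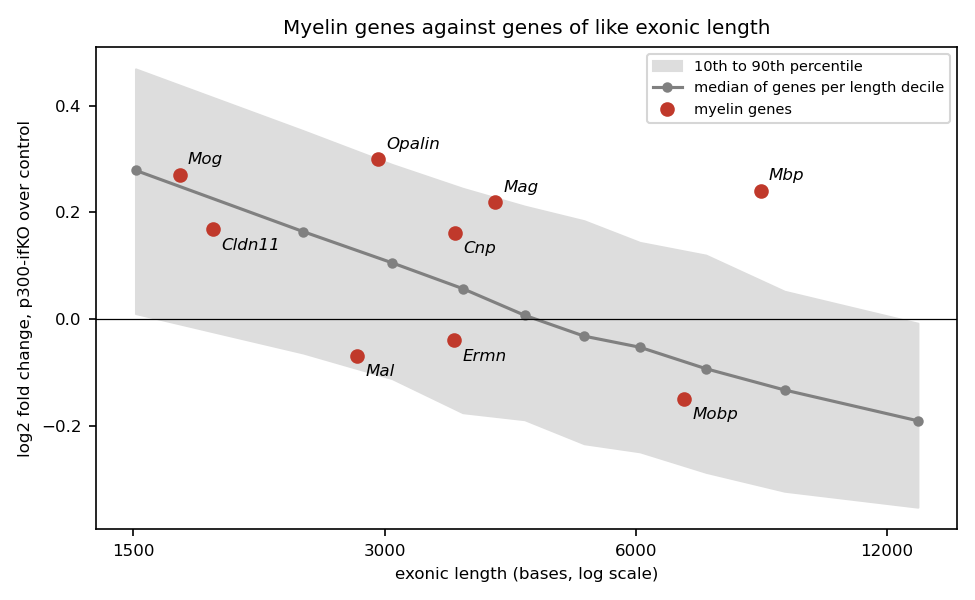
Log2 fold change (y axis, p300-ifKO over control) against exonic length in bases (x axis, log scale) for the 9 myelin genes (red), with the median (grey line) and the 10th to 90th percentile (grey band) of genes per length decile. Mbp, at 0.24 and 8469 bases (exons of 16 annotated transcripts joined), lies above the band, whereas Mog at 1704 bases lies close to the grey line.

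Other genes of the myelin sheath were examined by lists. Of 18 further genes for myelin membrane proteins, 0 were called in DESeq2 or edgeR, 12 had a positive and 6 a negative log2 fold change, and the median was 0.10. In DESeq2, 1 of the 18 had an unadjusted p under 0.05, against 1.32% of all genes: Sept4, a septin gene named after its values were seen, with 0.38 (SE 0.18). The extremes of the list were Pllp (plasmolipin) at 0.46 (SE 0.30) and Gpm6b, which neurons and astrocytes also express, at −0.28 (SE 0.18), both with an adjusted p of 0.991 in DESeq2.

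Genes for the lipids of myelin were called in 0 of 10 cases in DESeq2 and edgeR, with 0 of 10 at an unadjusted p under 0.05 in either, 6 positive, 4 negative and a median of 0.077. Gal3st1, which makes sulfatide, was highest in the list at 0.36 (SE 0.28), and Sgms1, a sphingomyelin synthase, lowest at −0.25 (SE 0.18). The 10 regulators of oligodendrocyte identity had a median of 0.0049, with 0 called in DESeq2 or edgeR and 7 positive. Nkx6-2, a homeobox factor of mature oligodendrocytes, had the highest value of the regulators, 0.56 (SE 0.27, unadjusted p 0.0378 and adjusted p 0.991 in DESeq2), and St18 the lowest, −0.44 (SE 0.29). Sox10 and Myrf, named here for the motifs above and after their values were seen, had log2 fold changes of 0.18 (SE 0.18) and 0.0042 (SE 0.16). With the 18 other genes of mature oligodendrocytes added, 39 of 56 genes in these 4 lists were positive, 0 were called and 3 (Nkx6-2, Sept4 and Ppp1r14a) had an unadjusted p under 0.05 in DESeq2, against 1.32% of all genes, with a median of 0.12. Without p300-ifKO 2, 7 of the 56 (12.5%) were called, against 2.89% of all genes: Cryab, Pllp, Ppp1r14a, Qdpr and Sept4 were higher and Gpm6b and St18 lower in p300-ifKO mice. That is the fit in which genotype and length trend coincide. The lists and all genes were not matched for expression: of the 32019 genes tested there, 12252 had a mean of at least 100.

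Among those 18, Ppp1r14a, an inhibitor subunit of myosin phosphatase, had the highest log2 fold change. It had 225, 193 and 210 normalized counts in the controls and 590, 232 and 329 in the p300-ifKO mice, and its groups did not overlap. In DESeq2 this was 0.87 on the log2 scale (SE 0.31), for which p was 0.0056 before adjustment and 0.991 after it. At 1367 bases it is shorter than any of the 9 genes. Gjc3, a connexin, had the lowest value of that list, −0.32 (SE 0.26).

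Earlier stages of the lineage were read by 2 further lists. The 8 genes of oligodendrocyte precursors had a median log2 fold change of −0.18, with 0 called and 3 of 8 positive, and the 8 genes of newly formed oligodendrocytes −0.16, with 0 called and 3 of 8 positive. Both lists had 0 genes at an unadjusted p under 0.05 in DESeq2 and in edgeR over all 6 libraries. In p300-ifKO 1, the mouse with the highest myelin sum, the median deviation was −0.18 for precursors, against 0.37 for the 9 genes. For newly formed oligodendrocytes the median deviation was −0.052, −0.024 and 0.20 in the controls and 0.11, −0.0066 and 0.033 in the p300-ifKO mice, with the same signs as the 9 genes. With the length and GC offsets the group median of the newly formed list turned to 0.017, whereas that of the precursors was −0.14. On that scale the median deviation of the newly formed list was −0.0024 in Control 3, so its sign there no longer matched that of the 9 genes. That of the precursors was −0.089 in p300-ifKO 1. Without p300-ifKO 2, DESeq2 called 1 of 8 genes of the newly formed list (lower) and 0 of 8 precursors, against 2.89% of all genes. At an unadjusted p under 0.05, 1 of 8 newly formed genes and 3 of 8 precursors were lower in that fit, and 0 of either list higher. Of all genes, 12.8% passed in either direction and 6.59% lower. Genotype and length trend coincide in that fit. Vcan, a proteoglycan of precursors, was the lowest of its list at −0.38 (SE 0.25), and C1ql1 the highest at 0.17 (SE 0.25). Enpp6 and Frmd4a marked the ends of the newly formed list, at 0.19 (SE 0.21) and −0.24 (SE 0.17). The difference between stages was not tested.

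**Figure D5:**
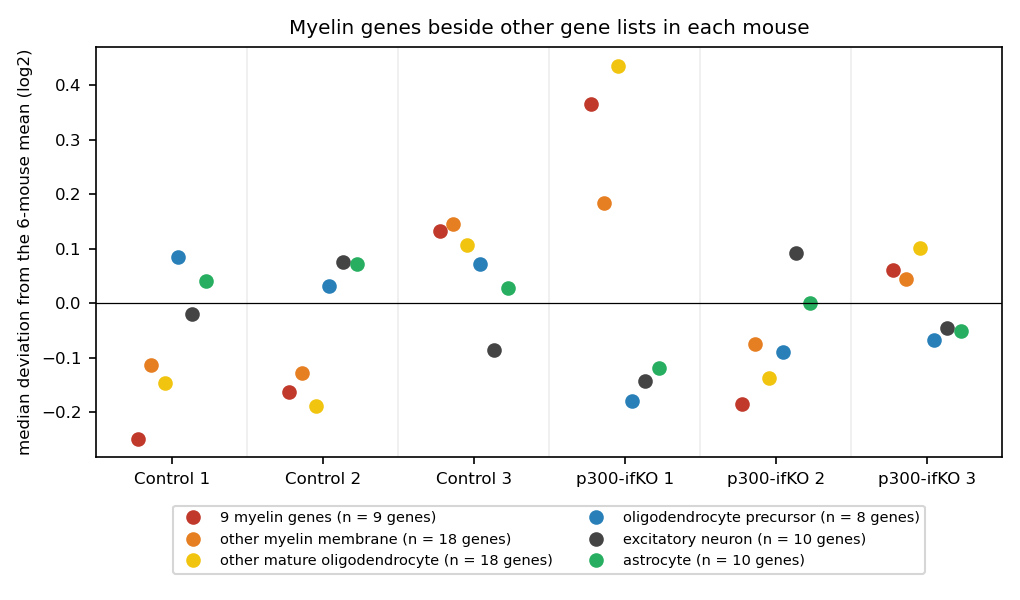
Median deviation (y axis, log2 units, size factors alone) from the mean over the 6 mice, for the 9 myelin genes and 5 other gene lists in each mouse (x axis), 1 point per list. The 3 lists of mature oligodendrocyte and myelin genes lie below 0 in Control 1, Control 2 and p300-ifKO 2 and above 0 in the other 3 mice, while the precursor list lies at −0.18 in p300-ifKO 1.

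Markers of other tissue varied between the same mice. The 5 blood genes (4 globin genes and Alas2), none of them at 0 in any library, summed to 2120 to 4064 normalized counts in the controls and 1431 to 3579 in the p300-ifKO mice, and were highest in Control 3 and p300-ifKO 1, the mice with the most myelin transcript. The 10 choroid plexus genes summed to 849 to 4052 in the controls and 1496 to 5703 in the p300-ifKO mice, also with none at 0, and were highest in Control 3 and p300-ifKO 3. For Ttr, the most abundant of these, the values were 646, 118 and 2804 in the controls and 827, 908 and 4488 in the p300-ifKO mice. The 10 excitatory neuron genes summed to 188707 to 211557 and 191691 to 213453, with 188707 in Control 3 and 191729 in p300-ifKO 1. The 10 microglia genes had a median log2 fold change of 0.18, with 7 positive and 0 called. In DESeq2, 2 of the 10 had an unadjusted p under 0.05, both higher, against 1.32% of all genes. They summed to 9795 to 10717 in the controls and 10600 to 12988 in the p300-ifKO mice. The 10 astrocyte genes had a median of −0.059, with 3 positive, 0 called and 2 lower at an unadjusted p under 0.05 in DESeq2, against 0.546% of all genes. The excitatory neuron genes had a median of −0.020, with 3 positive and 0 called. Of these, 1 was higher at an unadjusted p under 0.05 in DESeq2, against 0.772% of all genes. The part of these cell types in the joint movement and in the group comparison was not tested.

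The genes outside the list whose pattern over the 6 mice was most like the mean of the 9 were sought among 5434 genes with a mean of at least 100 and an SD of at least 0.2 on the log2 scale. A Pearson r above 0.9 was found for 17 of them (0.313%). The 10 closest, with r from 0.99 to 0.92, were Gm19439, Apod, Cyp27a1, Lbp, Ccdc153, Bcas1, Vim, Trf, Rsph1 and Foxj1. Of these, Apod (apolipoprotein D), Trf (transferrin) and Bcas1 are genes of oligodendrocytes and were in the lists above. The rest of the 10 were in none of the lists. Among them, Foxj1, the regulator of motile cilia, and Vim, an intermediate filament gene, are known from other cells. The pattern was thus not particular to genes of oligodendrocytes. Apod had 3159, 3714 and 5534 normalized counts in the controls and 6086, 3082 and 4428 in the p300-ifKO mice. Control 3 and p300-ifKO 1 were again on top, while the lowest mouse was p300-ifKO 2 and not Control 1. With the length and GC offsets, Vim and Foxj1 gave way to Tmem179b and Rfx2, and the other 8 were again among the closest 10.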

How the data were processed

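Hippocampal RNA of 6 mice was sequenced by the authors as single-end 50 bp reads. Per the processing notes of the submitters and the methods, reads were checked with FastQC 0.11.8, trimmed with Trim Galore 0.6.4, aligned to GRCm38 with STAR 2.6.1, kept above a mapping quality of 10 and counted over Ensembl 99 exons with Rsubread. The deposited values are raw counts per gene, as the authors made them, of 6 libraries, with 0 unused sample columns. The quality limit removes reads from near-identical copies. Groups and replicate numbers came from the titles.

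Identifiers were matched to GENCODE M21 (99.57% of 55471). The comparison used DESeq2 1.42.0 in R 4.3.3 (two-sided Wald test, no covariate, default filters, Benjamini-Hochberg adjustment over 32773 genes, threshold 0.05), the tool of the study, which used version 1.30.1. Alternatives were edgeR 4.0.16 (quasi-likelihood), limma-voom 3.58.1, TMM factors, count filters, a replicate block, leaving out each mouse, length and GC offsets by mgcv 1.9.3 (mean above 10), 1 surrogate variable by sva 3.50.0 and a threshold of 0.1. Deviations used log2(normalized count + 1). The DESeq2, edgeR, limma-voom, replicate block, offset and surrogate variable fits were tested on simulated data. The other settings, among them the fits that leave out 1 mouse, were not. P-values set the difference between the groups against the spread between individual mice.

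The 9 genes, the gene lists and the tests were chosen with earlier results of these data known, although the rule for the 9 uses no measured value. Genes named were the 9, the extremes of each list among genes with a mean of at least 100, the 10 most alike and Ep300. Esr1, Arsi, Sox10, Myrf, Pmp2, Sept4 and the genes called without p300-ifKO 2 were named after their values were seen. Further lists, for hippocampal fields, interneurons, astrocytes, microglia, endothelium and thalamus, had 0 genes called by DESeq2 over all 6 libraries. Without p300-ifKO 2 each had 1 or 2 called, except thalamus with 0, against 2.89% of all genes. Of the 10 excitatory neuron genes, 1 was called higher and 1 lower in that fit. Genotype and length trend coincide there. Protein sequences were not used here. The promoter of Mbp was not analysed here, and single values of some listed genes are not reported here.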

Additional observations from a re-analysis of the deposited data

How the results depend on the processing

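The count of called myelin genes was 0 in every alternative run. Over these, the median log2 fold change of the 9 stayed positive, from 0.028 without p300-ifKO replicate 1 to 0.33 without Control replicate 3. It was 0.063 with 1 surrogate variable and 0.18 with the replicate block. Mbp, Mog, Mag, Cnp, Cldn11 and Opalin stayed positive throughout. Mobp changed sign without Control replicate 3 (0.044). Mal did so without Control replicate 3 (0.16) and without p300-ifKO replicate 2 (0.029). Ermn did so without Control replicate 3 (0.21), without p300-ifKO replicate 1 (0.019), with 1 surrogate variable (0.16) and with length and GC offsets (0.12). With 1 mouse left out, the lowest and highest values were −0.33 and 0.044 for Mobp, −0.25 and 0.16 for Mal and −0.16 and 0.21 for Ermn, the lowest in each case without Control replicate 1. The cause was not tested. The count of called genes over the whole table was 4 with the replicate block, and 2 to 926 when 1 mouse was left out, with 926 without p300-ifKO replicate 2. The replicate numbers were not found to pair the mice: the correlation of deviations between same-numbered mice was 0.27, −0.28 and 0.13 over 17071 genes. With 3 mice per group, the 95% intervals of the 9 genes reached from −0.56 to 0.75, and each gene had at least 684 counts in every library.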
